A study of Mus musculus with 21 samples.

Results

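The AP-1 transcription factors were followed in mouse fibroblasts with and without loss of Prrx1, a homeobox transcription factor of mesenchymal cells. The 8 genes were taken by symbol: Fos, Fosb, Fosl1 and Fosl2 of the FOS family, Jun, Junb and Jund of the JUN family, and Atf3. All 8 were found among the 24447 genes listed in each of the 3 count tables, and all 8 passed the filter on low counts in every comparison. Bulk RNA-seq covered 21 cultures in 7 groups of 3. MEF, mouse embryonic fibroblasts from embryos of days 10 to 13 with the strain label C57BL/6, came as WT, as Prrx1 mutant (genotype label KI_PRRX1) and as sgPrrx1 cultures. The protocol names 129S-Prrx1tm1Jfm/Mmmh embryos as the mutant source, mice in which LacZ sits inside Prrx1 and which the methods describe as backcrossed to C57BL6. The sgPrrx1 cultures carried CRISPR/Cas9 with a guide RNA against Prrx1. Wound-healing fibroblasts were taken from C57BL/6 dorsal wounds at day 10, and MMTV-CAF, cancer-associated fibroblasts, from mammary tumours of FVB/NJ MMTV-PyMT mice, each as WT and sgPrrx1 cultures. The label WT stands for a control guide, sgNS, in the edited types, and whether WT MEF carried it is not stated. All cells, WT included, had been immortalized with papillomavirus oncogenes and were grown in 10% serum to 80 to 90% confluence. The labels do not say that the 3 cultures of a group came from separate animals, and column names of the mutant MEF and the wound-healing fibroblasts carry the same number in all cultures of a group, so p-values measure the spread between these cultures, which may be technical.

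AP-1 is a dimer of leucine-zipper proteins. JUN proteins pair with each other or with FOS proteins, FOS proteins cannot form stable dimers among themselves, and ATF3 pairs with JUN proteins or itself. Serum, growth factors, wounding and stress induce Fos, Fosb, Jun, Junb and Atf3 within minutes as immediate-early genes through MAP kinases, while Fosl1 and Fosl2 appear later and Jund is made at a steadier level in resting cells. In fibroblasts AP-1 controls proliferation, matrix-degrading enzymes and wound repair, and its members also act on their own promoters.

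The promoters were searched for the letters of the motifs that AP-1 and the related CREB and ATF factors are known to bind, and the stretches upstream of 4 genes are shown because AP-1 members are known to act on their own promoters. Sequences were taken from RefSeq (GRCm38.p6), which held a promoter for 7 of the 8 genes and none for Fosl1. Each line gives the 150 bases upstream of the annotated start, 5′ to 3′ on the strand of the gene. Capitals mark matches to TGANTCA, TGANNTCA or TGACG on either strand. A TGACG followed by TCA is matched by TGANNTCA too.
Fos, chr12:85473740-85473889, plus strand: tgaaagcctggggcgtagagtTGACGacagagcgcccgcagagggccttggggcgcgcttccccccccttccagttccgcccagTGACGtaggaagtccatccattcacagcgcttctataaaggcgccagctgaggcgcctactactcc
Jun, chr4:95052223-95052372, minus strand: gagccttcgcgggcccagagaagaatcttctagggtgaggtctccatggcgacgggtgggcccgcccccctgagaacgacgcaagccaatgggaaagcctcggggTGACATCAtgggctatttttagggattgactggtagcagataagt
Atf3, chr1:191183334-191183483, minus strand: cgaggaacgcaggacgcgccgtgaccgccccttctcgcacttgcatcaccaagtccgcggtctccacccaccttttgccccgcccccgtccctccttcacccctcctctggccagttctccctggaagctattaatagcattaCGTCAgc
Fosl2, chr5:32136322-32136471, plus strand: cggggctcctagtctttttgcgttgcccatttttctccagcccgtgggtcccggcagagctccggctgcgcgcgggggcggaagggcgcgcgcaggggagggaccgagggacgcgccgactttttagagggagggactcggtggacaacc

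In the whole windows of 300 bases, 250 before and 50 after the start, TGACG stood in Fos at -129 and -66, in Fosb at -60, in Junb at -106 and, on the other strand, in Atf3 at -7. TGANNTCA stood in Jun at -45 and 3 and in Jund at -61. None of the 7 windows held TGANTCA, and that of Fosl2 held none of the 3 motifs. Among 32851 promoters of this length, 7.81% held TGANTCA, 14.1% TGANNTCA and 20.8% TGACG. These matches describe the letters of the windows and are not binding sites shown by these data.

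Total counts per culture were between 69588655 and 134790440. Prrx1 itself was lower in every altered group: a mean of 178.6 CPM (counts relative to library size, scaled by TMM over the 21 cultures) in WT MEF stood against 22.0 in mutant and 120.4 in sgPrrx1 MEF, wound-healing fibroblasts had 147 and 65.2, and MMTV-CAF 640.1 and 307. The fall was smallest in sgPrrx1 MEF, at -0.60 (log2 fold change, standard error 0.14, edgeR adjusted p = 0.0145), and the deposited counts do not separate edited from intact transcripts. Between 10 and 12 of 12 fibroblast markers exceeded 1 CPM in each group, but their levels moved. Their sum was 43852 to 44860 CPM in WT and 22324 to 22368 in sgPrrx1 MMTV-CAF. It was 12357 to 12456 in WT and 7473 to 7532 in sgPrrx1 wound-healing fibroblasts. In MEF it was 16326 to 17007 in WT, 10536 to 12942 in mutant and 12648 to 14825 in sgPrrx1 cultures. Single markers went both ways: in MMTV-CAF Thy1 fell from 58.1 to 0.643 CPM and Dcn rose from 32.8 to 590. Some markers of other cell types also moved with the groups. The endothelial receptor Kdr was at 290 CPM in WT and 143 CPM in sgPrrx1 wound-healing fibroblasts, where it was the only endothelial marker of 5 over 1 CPM. The keratin Krt19 was at 12.2 CPM in WT, 217 in mutant and 22.7 in sgPrrx1 MEF, at 43.2 in WT and 58.9 in sgPrrx1 wound-healing fibroblasts, and at 53.6 in WT but 0.185 in sgPrrx1 MMTV-CAF. The macrophage receptor Csf1r was at 5.67 CPM in WT and 0.191 in sgPrrx1 MMTV-CAF. Their part in the results was not tested. The 3 mutant MEF cultures had 0 to 3 counts of the Y-linked gene Kdm5d, the WT MEF cultures 744 to 923 and the sgPrrx1 MEF cultures 654 to 676. What this difference between the lines contributes was not tested. The MEF cultures also varied more within groups: the biological coefficient of variation was 12.6 to 15.9% in the MEF groups and 6.37 to 7.36% in the other groups. Fibroblast type and count table change together, in MMTV-CAF with strain as well, and cannot be told apart. In bulk RNA fewer cells that express a gene cannot be told from less transcript per cell.

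Most AP-1 genes differed between the cultures with Prrx1 loss and WT, by amounts that varied with the fibroblast type. Fos was lower in the sgPrrx1 cultures of all 3 types, with log2 fold changes of -2.24 (MEF), -1.12 (wound-healing fibroblasts) and -0.52 (MMTV-CAF). Jun and Junb were called higher in the same 3 comparisons, as was Fosl1, and Fosl2 was called higher in both other types and lower in sgPrrx1 MEF. Of the 8 genes, sgPrrx1 wound-healing fibroblasts had 1 called lower and 7 higher (of which Jund turned under a correction for GC content and length), and the MMTV-CAF had 1 lower, 6 higher and 1 not called, at a Benjamini-Hochberg adjusted p under 0.05 from edgeR's quasi-likelihood test. In sgPrrx1 MEF 2 were lower and 3 higher, and in mutant MEF 3 were lower and 2 higher. These counts stand beside a high background. Of all genes tested, 77.6% were called in wound-healing fibroblasts (39.3% lower, 38.3% higher), 83.1% in MMTV-CAF (41.9% lower, 41.2% higher), 43.1% in sgPrrx1 MEF (22.8% lower, 20.3% higher) and 59.9% in mutant MEF (30.5% lower, 29.4% higher). With library totals in place of TMM, 60.3% of the calls in wound-healing fibroblasts and 58.5% of those in MMTV-CAF were higher, compared with 49.3 and 49.6%. The 2 MEF comparisons share the same 3 WT cultures.

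The median log2 fold change over the 8 genes was 0.34 in wound-healing fibroblasts, 0.71 in MMTV-CAF, 0.57 in sgPrrx1 MEF and 0.11 in mutant MEF. The medians of all genes tested lay within 0.01 of 0, which is what TMM scaling aims at. With library totals they were 0.12 in wound-healing fibroblasts, 0.13 in MMTV-CAF, -0.02 in sgPrrx1 MEF and 0.09 in mutant MEF. CPM ranges of altered and WT cultures did not overlap for 8 of the 8 genes in each sgPrrx1 comparison and for 7 in mutant MEF. The same held for 80.3, 84.7 and 56.1% of all genes in wound-healing fibroblasts, MMTV-CAF and sgPrrx1 MEF, and for 68.1% in mutant MEF. The median absolute log2 fold change of the 8 genes was 0.76 in sgPrrx1 MEF, beside 0.32 for all genes. It was 0.71 beside 0.49 in MMTV-CAF, 0.40 beside 0.37 in wound-healing fibroblasts and 0.48 beside 0.52 in mutant MEF. Whether the 8 genes moved more than other genes was not tested.

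**Figure D1:**
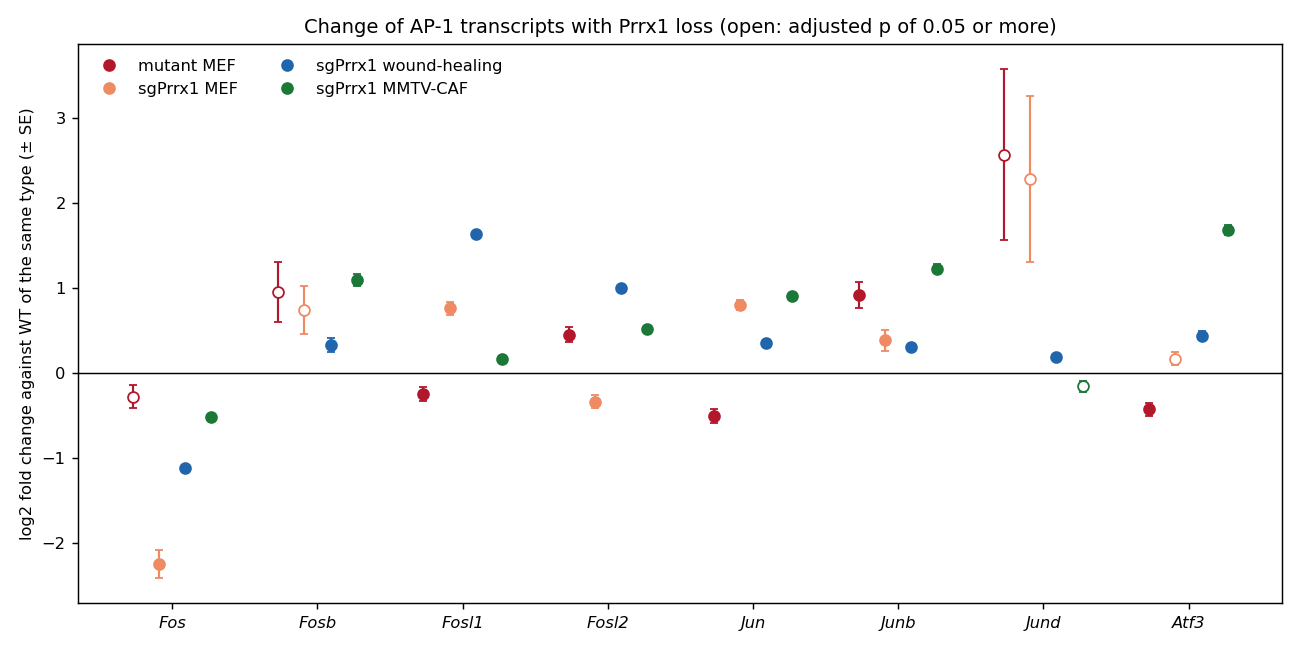
Log2 fold change of each AP-1 gene against WT cultures of the same fibroblast type, with its standard error, for mutant MEF, sgPrrx1 MEF, sgPrrx1 wound-healing fibroblasts and sgPrrx1 MMTV-CAF; filled points passed an adjusted p of 0.05. Fos lies below 0 in all 4 comparisons, and the widest bars are those of Jund in MEF, with standard errors of 1.0 and 0.98.

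Fos (chromosome 12, 85473890 to 85477274, GRCm38.p6) encodes the prototype immediate-early FOS protein. In WT MMTV-CAF its CPM was 37.6, 36.0 and 35.5 in replicates 1 to 3, and in sgPrrx1 MMTV-CAF 26.3, 25.3 and 24.7. Wound-healing fibroblasts had 19.1, 19.5 and 19.4 CPM in WT and 9.14, 9.30 and 8.53 in sgPrrx1 cultures. All sgPrrx1 cultures of these types lay under all their WT cultures. MEF had the lowest levels: 6.03, 8.24 and 7.34 CPM in WT, 5.82, 6.12 and 6.26 in mutant, and 1.66, 1.36 and 1.64 in sgPrrx1 cultures, which are only 92 to 127 reads each. The fall was 4.74-fold in sgPrrx1 MEF (log2 fold change -2.24, standard error 0.16, adjusted p = 0.000105), 2.17-fold in wound-healing fibroblasts (-1.12, standard error 0.04, adjusted p = 4.29e-08) and 1.43-fold in MMTV-CAF (-0.52, standard error 0.04, adjusted p = 2.49e-06). Mutant and WT MEF overlapped, and the value of -0.27 did not pass the threshold (standard error 0.14, adjusted p = 0.12); without WT MEF replicate 1, the WT culture with the lowest Fos, it was -0.38 with an adjusted p of 0.0389. Means ran over a 23.4-fold range from WT MMTV-CAF to sgPrrx1 MEF, and WT and mutant MEF were the only neighbours in the order whose cultures overlapped.

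**Figure D2:**
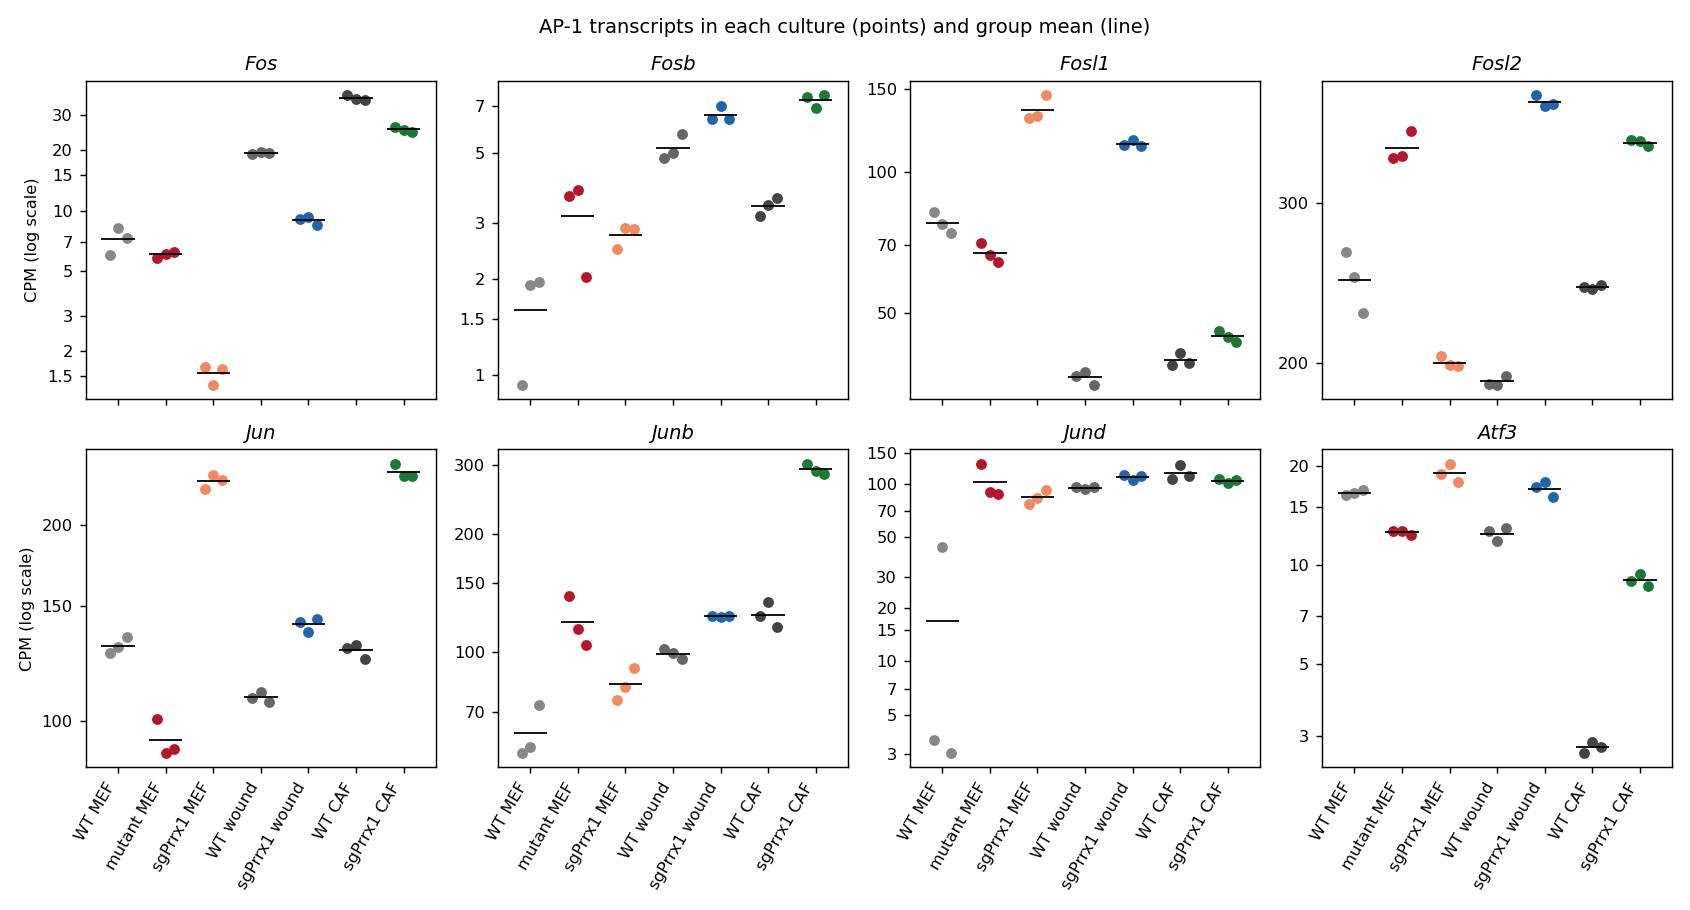
CPM of each AP-1 gene in the 21 cultures (points, log scale that differs between panels) with the mean of each group (line). WT groups are grey, and the 3 WT MEF cultures of Jund span 3.05 to 44.3 CPM while those of the other genes stay within 2.10-fold of each other.

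Fosb (chromosome 7, 19302696 to 19310118), an immediate-early relative of Fos, was the scarcest member per kilobase of exon in every group but sgPrrx1 MEF. Its CPM was 0.931, 1.92 and 1.96 in WT MEF, 3.65, 3.83 and 2.04 in mutant MEF and 2.49, 2.90 and 2.87 in sgPrrx1 MEF. The mutant and sgPrrx1 cultures lay above all 3 WT cultures, yet neither comparison passed the threshold: log2 fold changes were 0.96 (standard error 0.35, adjusted p = 0.0503) and 0.75 (standard error 0.28, adjusted p = 0.0671). Leaving out mutant replicate 3, the lowest of its group, gave 1.2 with an adjusted p of 0.0185. With all cultures, the mutant value passed under 6 other settings (adjusted p 0.0218 to 0.0478, with 0.0244 from DESeq2). The sgPrrx1 value passed under DESeq2 (adjusted p = 0.0455), the correction for GC content and length (edgeR adjusted p = 0.0244) and the replicate block (edgeR adjusted p = 0.0335). WT and sgPrrx1 wound-healing fibroblasts had 4.82, 5.01 and 5.73 and 6.39, 7.0 and 6.39 CPM (log2 fold change 0.33, standard error 0.08, adjusted p = 0.00603). A correction for GC content and length reduced this to 0.10 with an adjusted p of 0.291. WT and sgPrrx1 MMTV-CAF had 3.17, 3.42 and 3.61 and 7.48, 6.91 and 7.58 CPM, a 2.14-fold rise (1.10, standard error 0.07, adjusted p = 1.75e-06), the opposite direction to Fos in the same cultures.

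Fosl1 (chromosome 19, 5447698 to 5455938) encodes FRA-1, a late FOS protein associated with migration and invasion. Its CPM was 36.9, 37.5 and 35.3 in WT and 114, 117 and 113 in sgPrrx1 wound-healing fibroblasts, a 3.11-fold rise (log2 fold change 1.64, standard error 0.03, adjusted p = 7.53e-10). In MEF it was 82.0, 77.6 and 74.2 in WT, 70.5, 66.6 and 64.3 in mutant and 130, 131 and 145 in sgPrrx1 cultures. The sgPrrx1 MEF were thus 1.7-fold higher than WT (0.77, standard error 0.08, adjusted p = 0.000435), and the mutant MEF lower by a small margin (-0.24, standard error 0.08, adjusted p = 0.0347). That small fall was lost without mutant replicate 2 or 3 or WT replicate 1 or 2 (adjusted p 0.0981 to 0.119), and under the GC and length correction it was -0.06 (adjusted p = 0.659), and with library totals -0.15 (adjusted p = 0.152). MMTV-CAF had 38.8, 41.3 and 39.1 CPM in WT and 46.0, 44.6 and 43.6 in sgPrrx1 cultures (0.17, standard error 0.03, adjusted p = 0.00194; 0.30 with library totals). Fosl1 overlaps Ccdc85b in the annotation, and the library kit did not keep strand, so shared reads cannot be assigned; Ccdc85b averaged 7.76 to 38.4 CPM over the groups.

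Fosl2 (chromosome 5, 32136472 to 32157840) encodes FRA-2, which drives matrix production when overexpressed in mice. WT and sgPrrx1 wound-healing fibroblasts had 190, 189 and 194 and 394, 384 and 386 CPM, a 2.01-fold rise (log2 fold change 1.01, standard error 0.02, adjusted p = 7.9e-10). MMTV-CAF had 242, 241 and 244 CPM in WT and 352, 351 and 346 in sgPrrx1 cultures (0.52, standard error 0.02, adjusted p = 1.83e-08). In MEF the mutant cultures, at 336, 338 and 360 CPM, lay above the WT cultures at 265, 249 and 227 (0.45, standard error 0.09, adjusted p = 0.00374). The sgPrrx1 MEF, at 203, 199 and 198 CPM, lay below them (-0.33, standard error 0.07, adjusted p = 0.0107). This last call was lost without sgPrrx1 MEF replicate 2 (-0.32, adjusted p = 0.0586) and under the GC and length correction (-0.14, adjusted p = 0.223).

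Jun (chromosome 4, 95049036 to 95052222) encodes c-Jun, the main transactivating JUN protein. Its CPM was 127, 130 and 134 in WT MEF, 101, 89.4 and 90.6 in mutant MEF and 227, 239 and 234 in sgPrrx1 MEF. The 2 kinds of Prrx1 loss thus lay on either side of WT: -0.51 in mutant MEF (standard error 0.08, adjusted p = 0.00167; -0.31 under the GC and length correction) and 0.81 in sgPrrx1 MEF (standard error 0.06, adjusted p = 0.000108). Wound-healing fibroblasts had 108, 111 and 107 CPM in WT and 142, 137 and 144 in sgPrrx1 cultures (0.36, standard error 0.03, adjusted p = 2.08e-06), and the GC and length correction reduced the difference to 0.17 (adjusted p = 0.000296). MMTV-CAF rose from 130, 131 and 125 CPM to 248, 237 and 237, which is 1.87-fold (0.90, standard error 0.03, adjusted p = 2.39e-08). The sgPrrx1 MMTV-CAF and sgPrrx1 MEF overlapped at the top of the order, and mutant MEF were lowest.

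Junb (chromosome 8, 84976909 to 84978748), a JUN protein often opposed to c-Jun in cell-cycle control, was highest in sgPrrx1 MMTV-CAF. Its CPM there was 302, 290 and 285, and 124, 134 and 116 in WT MMTV-CAF, a 2.34-fold rise (log2 fold change 1.23, standard error 0.05, adjusted p = 1.21e-07). Wound-healing fibroblasts had 101, 99.4 and 95.8 CPM in WT and 123 in each sgPrrx1 culture (0.30, standard error 0.02, adjusted p = 5.3e-06), and the GC and length correction reduced the difference to 0.09 (adjusted p = 0.0101). WT MEF had 55.1, 57.1 and 73.2 CPM and mutant MEF 139, 115 and 104 (0.92, standard error 0.15, adjusted p = 0.00188). The sgPrrx1 MEF, at 75.3, 81.4 and 90.8 CPM, were above all WT cultures by a narrow gap (0.39, standard error 0.13, adjusted p = 0.0452). That call was lost without sgPrrx1 replicate 2 or 3 or WT replicate 1 or 2, with adjusted p-values of 0.0963 to 0.14, and under 4 of the other settings.

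Jund (chromosome 8, 70697739 to 70700616), the JUN protein of resting cells, had group means between 84.6 and 115.9 CPM outside WT MEF. WT and sgPrrx1 wound-healing fibroblasts had 96.8, 93.6 and 96.2 and 113, 106 and 112 CPM, and WT and sgPrrx1 MMTV-CAF 107, 129 and 111 and 107, 101 and 105. Mutant MEF had 130, 90.0 and 88.3 CPM, and sgPrrx1 MEF 77.6, 83.9 and 92.3. In WT MEF it was 3.61, 44.3 and 3.05 CPM, from 252, 3113 and 268 counts. Replicate 2 thus stood 14.5-fold above replicate 3, and only 21 of 10171 genes over 5 CPM in WT MEF spread as widely or more. All mutant and sgPrrx1 cultures lay above all WT cultures, but neither comparison passed the threshold, at 2.57 (standard error 1.0, adjusted p = 0.0602) and 2.29 (standard error 0.98, adjusted p = 0.0972). Without WT replicate 2 the values were 4.92 (adjusted p = 5.94e-05) and 4.64 (adjusted p = 4.91e-05), so the size of the difference rested on 1 culture and its direction did not. No RefSeq gene overlaps Jund. Its exons have a GC content of 62.7%, above that of 98.6% of genes tested in mutant MEF, and whether this bears on the spread was not tested.

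Outside MEF, Jund moved little. The rise in wound-healing fibroblasts was 0.19 (standard error 0.03, adjusted p = 0.000332), was 0.30 with library totals and turned to -0.07 (adjusted p = 0.0413) under the GC and length correction, so its direction depends on the processing. In MMTV-CAF the value was -0.16 (standard error 0.06, adjusted p = 0.0527). It passed the threshold without WT MMTV-CAF replicate 1 (-0.21, adjusted p = 0.0171) or 3 (-0.19, adjusted p = 0.048), and was -0.08 without replicate 2. It also passed under RLE scaling (adjusted p = 0.0458), upper-quartile scaling (adjusted p = 0.0495), a filter of 10 counts in every culture (adjusted p = 0.0408) and the GC and length correction (-0.18, adjusted p = 0.00521). Library totals gave -0.02 (adjusted p = 0.761).

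Atf3 (chromosome 1, 191170296 to 191183333) encodes a stress-induced repressor and partner of JUN proteins. WT MMTV-CAF had the lowest level of all groups, at 2.67, 2.88 and 2.78 CPM, and sgPrrx1 MMTV-CAF had 8.90, 9.38 and 8.62, a 3.22-fold rise (log2 fold change 1.69, standard error 0.06, adjusted p = 5.16e-08). This was the largest rise of a member that passed the threshold, and 86.1% of genes tested in MMTV-CAF changed less. Wound-healing fibroblasts had 12.6, 11.8 and 12.9 CPM in WT and 17.3, 17.8 and 16.1 in sgPrrx1 cultures (0.44, standard error 0.05, adjusted p = 6.03e-05). WT MEF had 16.3, 16.5 and 16.9 CPM and mutant MEF 12.6, 12.7 and 12.4, all lower (-0.43, standard error 0.08, adjusted p = 0.00317). The sgPrrx1 MEF had 19.0, 20.3 and 17.9 CPM (0.17, standard error 0.08, adjusted p = 0.109).

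Per kilobase of exon, the scale on which genes can be compared, Fosl1 and Fosl2 supplied most FOS-family transcript in every group. In WT MEF Fosl1 was 50.0% and Fosl2 46.1% of the family sum, and in sgPrrx1 MEF 69.0 and 29.8%. Fos reached 19.1% ± 0.573 in WT MMTV-CAF (SD, n = 3) and 10.96% ± 0.182 in sgPrrx1 MMTV-CAF, 12.9% ± 0.0981 in WT and 2.75% ± 0.102 in sgPrrx1 wound-healing fibroblasts, and 3.37% ± 0.617 in WT, 2.54% ± 0.101 in mutant and 0.574% ± 0.0563 in sgPrrx1 MEF. The family sum nevertheless was higher with the guide. It was 63.6 ± 0.284 CPM per kilobase in WT and 139 ± 1.2 in sgPrrx1 wound-healing fibroblasts, 81.1 ± 0.494 and 98.7 ± 1.51 in MMTV-CAF, and 91.3 ± 5.13 and 114.9 ± 4.78 in MEF (SD, n = 3 each). The loss of Fos transcript was thus smaller than the gain of Fosl1 or Fosl2 in each type.

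The JUN family summed to 149 ± 9.23 CPM per kilobase in WT and 274 ± 7.29 in sgPrrx1 MMTV-CAF (SD, n = 3 each). Junb was its largest part there, at 46.1% in WT and 59.2% in sgPrrx1 cultures. In wound-healing fibroblasts the sum was 122 ± 1.88 in WT and 151 ± 2.57 in sgPrrx1 cultures, with Junb at 44.8 and 45.3% and Jun at 28.0 and 29.3%. In MEF the sum was 81.1 ± 8.34 in WT, 131 ± 19.8 in mutant and 148 ± 7.97 in sgPrrx1 cultures. Jun was the largest part in sgPrrx1 MEF, at 49.4%, and Junb in mutant MEF, at 50.3%. The WT MEF sum holds the uneven Jund values. These sums are descriptions, and no test was run on them.

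**Figure D3:**
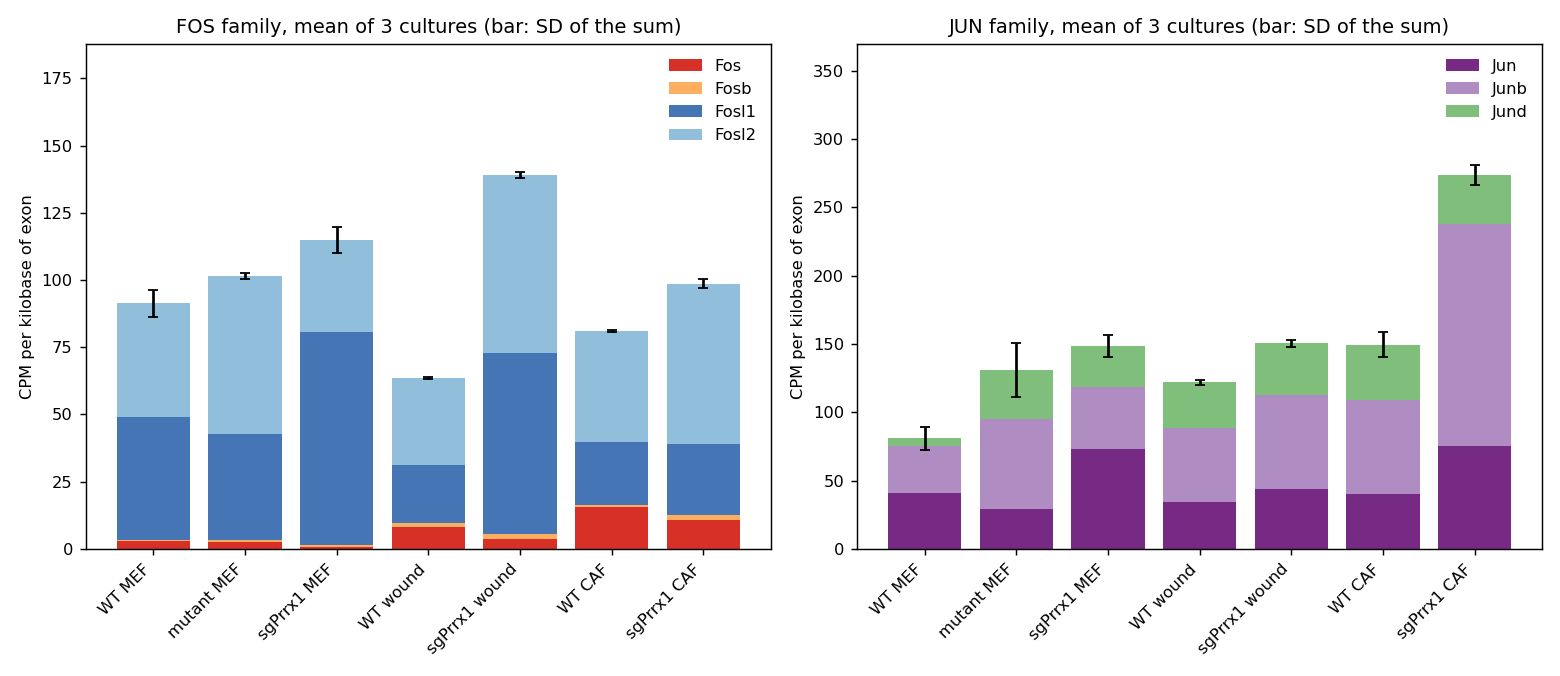
CPM per kilobase of exon of the FOS family (left) and the JUN family (right), stacked by gene as means of 3 cultures, with the SD of the family sum as error bar. Fos is a thin base that shrinks in each sgPrrx1 group under growing Fosl1 or Fosl2, and the JUN sum of sgPrrx1 MMTV-CAF stands highest at 274.

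Whether the change with the guide differed between MEF, wound-healing fibroblasts and MMTV-CAF was tested by the interaction of type and genotype over these 18 cultures. All 8 genes passed, beside 80.1% of 14972 genes tested. Fosl2 was the only one called in opposite directions in different types, lower in MEF and higher in the others (interaction adjusted p = 1.17e-10). Its call against WT MEF was lost without sgPrrx1 MEF replicate 2 (edgeR adjusted p = 0.0586) and under the GC and length correction (-0.14, edgeR adjusted p = 0.223). Fos fell in all 3 by different amounts (adjusted p = 1.85e-08), and Fosl1 ranged from 0.17 in MMTV-CAF to 1.64 in wound-healing fibroblasts (adjusted p = 1.24e-10). Atf3 had its smallest value in MEF, 0.17, against 0.44 in wound-healing fibroblasts and a rise of 1.69 in MMTV-CAF (adjusted p = 4.15e-10). The result for Jund (adjusted p = 0.0418) held in only 1 of the 18 fits that left out a culture, that without WT MEF replicate 2 (adjusted p = 2.12e-13), and that for Fosb (adjusted p = 0.0156) was lost without WT MMTV-CAF replicate 1 (adjusted p = 0.051).

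The 2 kinds of Prrx1 loss in MEF, compared directly, differed in 6 of 8 genes, 3 lower and 3 higher in sgPrrx1 than in mutant MEF, beside 56.2% of all genes tested (28.4% lower, 27.8% higher). Kind of loss and line change together here and cannot be told apart: Kdm5d had 654 to 676 counts in sgPrrx1 and 0 to 3 in mutant MEF. CPM ranges did not overlap for 6 of the 8, and for 63.8% of all genes. Fos was 3.92-fold lower in sgPrrx1 MEF (log2 fold change -1.97, standard error 0.12, adjusted p = 2.47e-05). Fosl2 (-0.79, standard error 0.06, adjusted p = 6.1e-05) and Junb (-0.54, standard error 0.12, adjusted p = 0.0101) were lower too. Jun was 2.48-fold higher (1.31, standard error 0.07, adjusted p = 1.7e-05), Fosl1 2.01-fold higher (1.0, standard error 0.07, adjusted p = 5.69e-05) and Atf3 1.51-fold higher (0.59, standard error 0.08, adjusted p = 0.000832). Fosb (-0.22, standard error 0.25, adjusted p = 0.489) and Jund (-0.29, standard error 0.16, adjusted p = 0.177) did not pass, and their cultures overlapped; without mutant replicate 3 Fosb was -0.45 (adjusted p = 0.0289).

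Across the 21 cultures, Fos and Fosl1 ran against each other, with a Pearson r of -0.87 of log2 CPM, and -0.81 after centring on each fibroblast type. Fosb and Junb ran together, at 0.76 and 0.86 centred. The cultures share 7 groups, so these values describe few independent points. Over 15093 genes, the patterns most like that of Fos were those of Irf9 (r = 0.99), a factor of interferon signalling, and Iigp1 (r = 0.98), an interferon-inducible GTPase. Those most like Atf3 were Igf2bp3 (r = 0.99), an RNA-binding protein, and Smpdl3b (r = 0.99), and the nearest for the others were Cdc7 for Fosb (r = 0.96), Nav3 for Fosl1 (r = 0.96), Nrn1 for Fosl2 (r = 0.95), Tagln2 for Jun (r = 0.97), Tax1bp1 for Junb (r = 0.98) and 4833439L19Rik for Jund (r = 0.87).

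Genes around AP-1 were described by lists. Their counts, here and below, stand beside the shares of all genes tested. These were 38.3% higher and 39.3% lower in wound-healing fibroblasts and 41.2% higher and 41.9% lower in MMTV-CAF. In sgPrrx1 MEF they were 20.3% higher and 22.8% lower, and in mutant MEF 29.4% higher and 30.5% lower. No list was tested against these shares. Feedback inhibitors of MAP kinase signalling, the phosphatases and adaptors that MAP kinases induce against themselves, held 17 tested genes. In wound-healing fibroblasts 3 were called lower and 12 higher, in MMTV-CAF 8 and 9, in sgPrrx1 MEF 3 and 4, and in mutant MEF 8 and 6. Spry1, an inhibitor of growth factor receptors, was the lowest in each comparison: -3.18 in wound-healing fibroblasts (standard error 0.05, adjusted p = 1.84e-10), -2.80 in MMTV-CAF (standard error 0.05, adjusted p = 1.49e-09), -2.30 in sgPrrx1 MEF (standard error 0.15, adjusted p = 5.7e-05) and -3.98 in mutant MEF (standard error 0.26, adjusted p = 2.95e-05). Spry2 fell in sgPrrx1 MEF (-1.29) and MMTV-CAF (-1.62) and rose in wound-healing fibroblasts (1.15). Dusp1, a nuclear phosphatase of JNK and p38, fell in wound-healing fibroblasts (-1.07), and Dusp6, which acts on ERK, rose in MMTV-CAF (1.69). The list's median was 0.59 in wound-healing fibroblasts, 0.05 in MMTV-CAF, 0.06 in sgPrrx1 MEF and -0.25 in mutant MEF.

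The kinases and factors upstream of AP-1 had 18 of 31 genes higher and 5 lower in wound-healing fibroblasts, 13 and 12 of 31 in MMTV-CAF, 6 and 2 of 29 in sgPrrx1 MEF and 9 and 4 of 30 in mutant MEF. Map2k4, a kinase that activates JNK, was higher in mutant (2.22, adjusted p = 4.39e-05) and sgPrrx1 MEF (1.82, adjusted p = 0.0141). Mapk3, which encodes ERK1, was lower in both (-0.93 and -0.37). In wound-healing fibroblasts Mapk13 (2.32) and Map2k7 (1.09) were higher. Map2k6 (-0.80) and Elk1, an ERK target (-0.54, edgeR adjusted p = 2.79e-06), were lower there.

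Of 21 other immediate-early genes tested, 12 were higher and 6 lower in wound-healing fibroblasts, while MMTV-CAF had 13 and 7. The counts were 9 and 2 in sgPrrx1 MEF and 6 and 5 in mutant MEF. Nfkbiz, a regulator of NF-kB target genes, was higher in wound-healing fibroblasts (2.32) and MMTV-CAF (1.24) and lower in sgPrrx1 MEF (-0.81). Egr1 was lower in sgPrrx1 MEF (-0.24, adjusted p = 0.0235), where Egr3 was higher (1.17, adjusted p = 0.00244). In wound-healing fibroblasts Egr2 (-2.73, adjusted p = 3.01e-08) and Egr3 (-0.43, adjusted p = 0.000492) were lower. Klf4 was lower in mutant MEF (-3.06) and MMTV-CAF (-1.43) and higher in wound-healing fibroblasts (1.63), and Myc was higher in sgPrrx1 MEF (0.89).

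Genes with known AP-1 sites in fibroblasts went both ways. Of 26 tested, 17 were higher and 8 lower in wound-healing fibroblasts (median 0.47), and 15 and 11 in MMTV-CAF (median 0.48). In sgPrrx1 MEF 5 were higher and 10 lower of 23 (median -0.27), and in mutant MEF 11 and 7 of 24 (median 0.32). Mmp3, stromelysin, was higher in wound-healing fibroblasts (3.36, standard error 0.28, adjusted p = 6.4e-06) and lower in MMTV-CAF (-3.52, standard error 0.05, adjusted p = 5.21e-10). Areg, an EGF receptor ligand, was higher in MMTV-CAF (5.63) and mutant MEF (1.46), and Cxcl1, a neutrophil chemokine, likewise (4.29 and 3.04). In sgPrrx1 MEF Hbegf (0.89) and Plaur, the urokinase receptor (0.86), were higher, and Il6 (-6.71) and Mmp13 (-4.04) were lower. Ccnd1, cyclin D1, was lower in mutant MEF (-2.09).

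Relatives and partners of AP-1 among the leucine-zipper factors had 6 of 13 tested genes higher and 5 lower in wound-healing fibroblasts, 3 and 10 of 14 in MMTV-CAF, 1 and 3 of 13 in sgPrrx1 MEF and 2 and 5 of 13 in mutant MEF. Batf3 was higher in MMTV-CAF (3.82, adjusted p = 3.21e-08). Genes of the integrated stress response share Atf4, Atf5 and Ddit3 with the relatives, and Atf3 is commonly counted among them. Most of the list was lower in wound-healing fibroblasts, MMTV-CAF and mutant MEF. In MMTV-CAF 8 of 14 were lower and 3 higher (median -0.22), with Atf5 at -1.72 and Trib3 at -1.65 lower and Cebpb at 0.66 higher. In wound-healing fibroblasts 10 were lower and 3 higher, in sgPrrx1 MEF 3 and 6, and in mutant MEF 8 and 2. Among 8 tested genes of JUN and FOS turnover, 3 were higher in each comparison, with 3, 4, 0 and 2 lower in wound-healing fibroblasts, MMTV-CAF, sgPrrx1 MEF and mutant MEF. Senp2, a SUMO protease, was among the higher ones in all 4 (0.29, 0.56, 0.56 and 1.0 in that order).

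**Figure D4:**
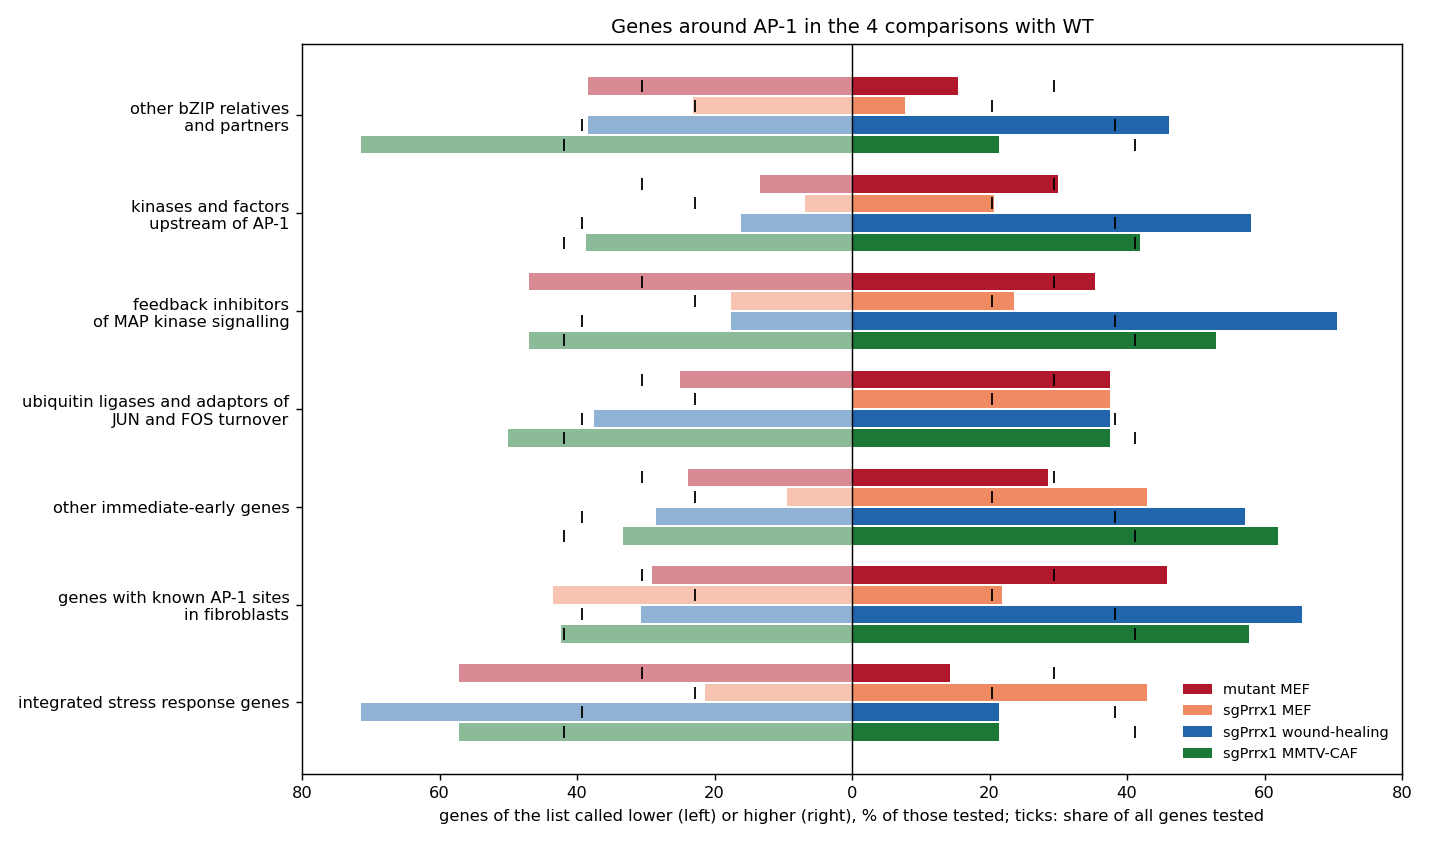
Genes of each list called lower (left, pale) or higher (right) as a percentage of those tested, for the 4 comparisons with WT, with ticks at the share of all genes tested in that comparison. In wound-healing fibroblasts the feedback inhibitors reach 12 of 17 higher, and in MMTV-CAF the leucine-zipper relatives reach 10 of 14 lower.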

How the data were processed

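The authors deposited 3 tables of counts per gene, whole numbers of reads without normalization, 1 for each fibroblast type. Per the labels and the study's methods, total RNA was made into TruSeq RNA v2 libraries, read as 100-base pairs, then trimmed (Trimmomatic), aligned (STAR, mm10) and counted per gene (HTSeq). Use of ComBat-seq on the mouse counts is not stated. Wound-healing columns were assigned to their type by elimination.

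The 6 cultures of a comparison were fitted in edgeR 4.0.16 (R 4.3.3): filterByExpr, TMM scaling, glmQLFit and glmQLFTest over all genes, with Benjamini-Hochberg adjustment and a threshold of 0.05. The standard error is the absolute log2 fold change divided by the square root of F. CPM used TMM over 21 cultures, and log2 CPM a prior count of 2. Exon length and GC came from Gencode M1 (NCBIM37, used for these 2 properties alone), promoters and loci from RefSeq. Named genes were the 8 members, Prrx1, the 2 genes with the highest r for each member and, from each list, the 2 lowest and 2 highest called genes per comparison, of which part is named; Kdm5d, Ccdc85b and the cell type markers were named outside this rule, after values were seen. Members and lists were chosen with earlier results of these data known. Alternatives were DESeq2 1.42.0, other scalings and filters, the replicate block, each culture left out and, chosen after seeing the data, a GC and length correction. Replicate numbers did not clearly pair the cultures. Steps were tested on simulated data in which 200 genes changed and every gene had the same spread. In the simulated comparisons 3.94 to 6.64% of the calls fell on unchanged genes. Change as widespread as in these cultures was not simulated.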

Additional observations from a re-analysis of the deposited data

Results flagged for a closer look

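The change in sgPrrx1 cultures differed between MEF, wound-healing fibroblasts and MMTV-CAF for all 8 AP-1 genes by edgeR's interaction test, beside 80.1% of all genes tested. Adjusted p-values were 1.24e-10 for Fosl1, 1.17e-10 for Fosl2, 4.15e-10 for Atf3, 1.85e-08 for Fos, 3.67e-08 for Jun, 3.28e-06 for Junb, 0.0156 for Fosb and 0.0418 for Jund. In Fos the largest change was in sgPrrx1 MEF, where its reads were only 92 to 127 per culture. The result for Jund held in only 1 of the 18 fits that left out a culture, that without WT MEF replicate 2. That for Fosb was lost without WT MMTV-CAF replicate 1 (adjusted p = 0.051). Groups of 3 cultures were not tested for single cultures that stand apart, so the spread of Jund in WT MEF was not flagged by itself.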

How the results depend on the processing

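Of 584 log2 fold changes of AP-1 genes under other settings, 538 kept their direction and their side of the threshold, 19 lost it and 26 gained it, and 1 turned: Jund in wound-healing fibroblasts was -0.066 under the GC and length correction. In sgPrrx1 MEF, leaving out single cultures gave 3 to 5 called AP-1 genes and 3830 to 6340 called genes overall (5 and 5764 with all cultures); the count of 3 came without sgPrrx1 replicate 2, and the lowest counts of genes, 3830 and 3834, without WT replicate 2 or sgPrrx1 replicate 2. With 1 culture left out, the remaining ones are assumed to vary alike. Of the 16 genes nearest to a member, 4 were also nearest by Spearman's rho and 3 after centring on the fibroblast type, so those names depend on the measure.

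The replicate numbers did not pair the cultures, and with a replicate block 5, 7, 8 and 7 AP-1 genes were called in mutant MEF, sgPrrx1 MEF, wound-healing fibroblasts and MMTV-CAF, and 5 between the MEF groups, where Junb was lost (adjusted p = 0.0562). In the block Jund passed in mutant MEF (3.78, adjusted p = 0.0391) and sgPrrx1 MEF (3.44, adjusted p = 0.0326), Fosb passed in sgPrrx1 MEF (0.80, adjusted p = 0.0335), and Fosl1 was lost in mutant MEF (adjusted p = 0.0702). Library totals in place of TMM moved the median log2 fold change of all genes by over 0.1 in wound-healing fibroblasts (to 0.12) and MMTV-CAF (to 0.13), and 7 and 6 AP-1 genes were higher there under every scaling. DESeq2 gave Jund no adjusted p in the interaction test. Depth limits Fos in sgPrrx1 MEF and Fosb in WT MEF most, with 92 and 65 counts in their lowest cultures.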
